A study of Mus musculus with 2 samples.

Results

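Smooth muscle cluster 3 is a population of aortic cells that the authors placed in their smooth muscle class (SMC) and numbered 3 in their integrated clustering. Its members were chosen by the class and the cluster number in the authors' cell table, 1 entry per barcode. It held 536 cells, of 5943 smooth muscle cells and 7917 cells in all. The data came from single-cell RNA sequencing of enzymatically digested mouse aortas, with 1 library per genotype. One library was of Apoe knockout mice (Apoe_KO), which lack apolipoprotein E and develop atherosclerosis. The other was of EC-iDKO mice on the Apoe knockout background (EC-iDKO_Apoe_KO, here the double knockout). The labels do not spell out EC-iDKO. From general knowledge of the line it is read here as an inducible, endothelial deletion of the endocytic adaptors epsin 1 and epsin 2, and on that reading smooth muscle is not the cell type in which the genes are deleted. Both libraries thus share the loss of Apoe, and both groups of mice had 12 weeks of western diet. The ages of the mice and the number pooled in each library are not stated. The protocol adds CD31 microbeads to the cell suspension, whereas the cell type label of both libraries reads all cells.

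Medial smooth muscle cells hold the tone of the aorta with an actin and myosin apparatus, and they turn to matrix production or to a modulated state in a diseased wall. Immediate early genes such as Fos, Jun and Egr1 are transcription factor genes that are switched on within minutes of a stimulus, without new protein synthesis, through serum response factor, CREB and STAT proteins bound at their promoters. Their RNAs are short lived, and enzymatic digestion of tissue at warm temperature is itself known as a stimulus. Both libraries here were digested at 37°C.

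Cluster 3 had 249 cells in the Apoe knockout library and 287 in the double knockout library, and the other smooth muscle clusters had 1287 and 4120. The Apoe knockout cells of cluster 3 held 1482368 UMIs (unique molecular identifiers, each standing for 1 captured RNA molecule), with a median of 4633 UMIs and 1998 genes per cell. The double knockout cells held 688475 UMIs, with a median of 2376 UMIs and 1255 genes. Median depth in the other smooth muscle clusters was 4883 UMIs in the Apoe knockout library and 745 in the double knockout library. The deepest cell of cluster 3 had 24915 and 5759 UMIs in the 2 libraries, below the deepest other smooth muscle cell at 28885 and 10765. Mitochondrial UMIs made up a median of 4.36% and 4.01% per cell. Of the 5 barcode sequences found in both libraries, 0 lay in cluster 3.

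Levels are given as CPM, the summed UMIs of a population scaled to a total of 1000000. A gene was called higher or lower when its CPM differed by at least 1.5-fold, with a 95% exact counting interval of the ratio that did not hold 1, and with at least 100 UMIs over both populations. Members of gene lists needed at least 20 UMIs, and are then said to be measured. Since the clusters were made from these same genes and each genotype had 1 library, these calls describe the 2 libraries and carry no test. The intervals cover counting error only. Ratios are given on the log2 scale as cluster 3 over all other smooth muscle clusters of the same library, unless a genotype ratio is named.

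Smooth muscle markers stood near their levels in the other smooth muscle clusters. Of 10 smooth muscle markers, 10 were measured in each library and 0 were called, with a median log2 ratio of -0.18 in the Apoe knockout library and -0.22 in the double knockout library. Their summed level was 53088 CPM in cluster 3 against 58670 CPM in the other clusters of the Apoe knockout library, and 54404 against 60758 CPM in the double knockout library. Myh11, the smooth muscle myosin heavy chain, stood at 7416 and 7366 CPM in cluster 3 and at 5995 and 5963 CPM in the other clusters. Acta2, the smooth muscle actin, had a log2 ratio of -0.16 in both libraries, and Tagln, an actin-binding protein, of -0.28 and -0.37. By these genes cluster 3 was like the rest of its class, and its levels differed from those of its neighbours by less than the fold of the rule. The cells were chosen by that class and compared within it, so these values do not check the label.

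The named markers of the cluster are 4 genes. On GRCm38, Matn4, a secreted matrix adaptor protein, lies on chr2:164389393-164405160 on the minus strand, and Lsmem1, a small leucine-rich membrane protein, on chr12:40175493-40199490 on the minus strand. Arc, an activity-regulated gene best known from neurons, lies on chr15:74669083-74672570 on the minus strand. Sytl5, a synaptotagmin-like protein of Rab27-driven secretion, lies on chrX:9885622-9994543 on the plus strand.

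In the Apoe knockout library all of these markers were higher in cluster 3. Matn4 stood at 60.7 against 23.8 CPM, a ratio of 2.55 (1.95 to 3.31). Lsmem1 stood at 144 against 63.6 CPM, a ratio of 2.27 (1.92 to 2.68). Arc stood at 121 against 51.0 CPM, a ratio of 2.38 (1.98 to 2.85), and Sytl5 at 33.7 against 15.3 CPM, a ratio of 2.21 (1.55 to 3.11). The number of markers called was 4 of 4, where 3.8% of the 7494 genes tested in that library were called higher. The markers were chosen with earlier results of these data known, so this count describes them and is no support for the cluster. Of the same markers 2 of 4 were called in the double knockout library, against 6.56% of 6285 genes, with a median log2 ratio of 0.56. Both calls were lost among cells of 1000 UMIs or more with a mitochondrial part below 10%, where 0 of 4 were higher and the median was 0.23. With cells thinned to 1000 UMIs each, 0 of 3 measured markers were higher there, whereas 4 of 4 and 3 of 4 were higher in the Apoe knockout library under these settings. Lsmem1 stood at 43.6 against 27.0 CPM and Arc at 43.6 against 26.2 CPM. Matn4 was at 21.8 against 16.2 CPM on 15 UMIs, and Sytl5 at 8.71 against 11 CPM on 6 UMIs, both under the minimum of 100 UMIs over the 2 populations. The double knockout ratio of Matn4 was 1.35 (0.721 to 2.36). Divided by the Apoe knockout ratio, it gave 0.529 (0.288 to 0.971) for Matn4 and 0.357 (0.144 to 0.885) for Sytl5, while the intervals for Lsmem1 and Arc held 1.

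**Figure D1:**
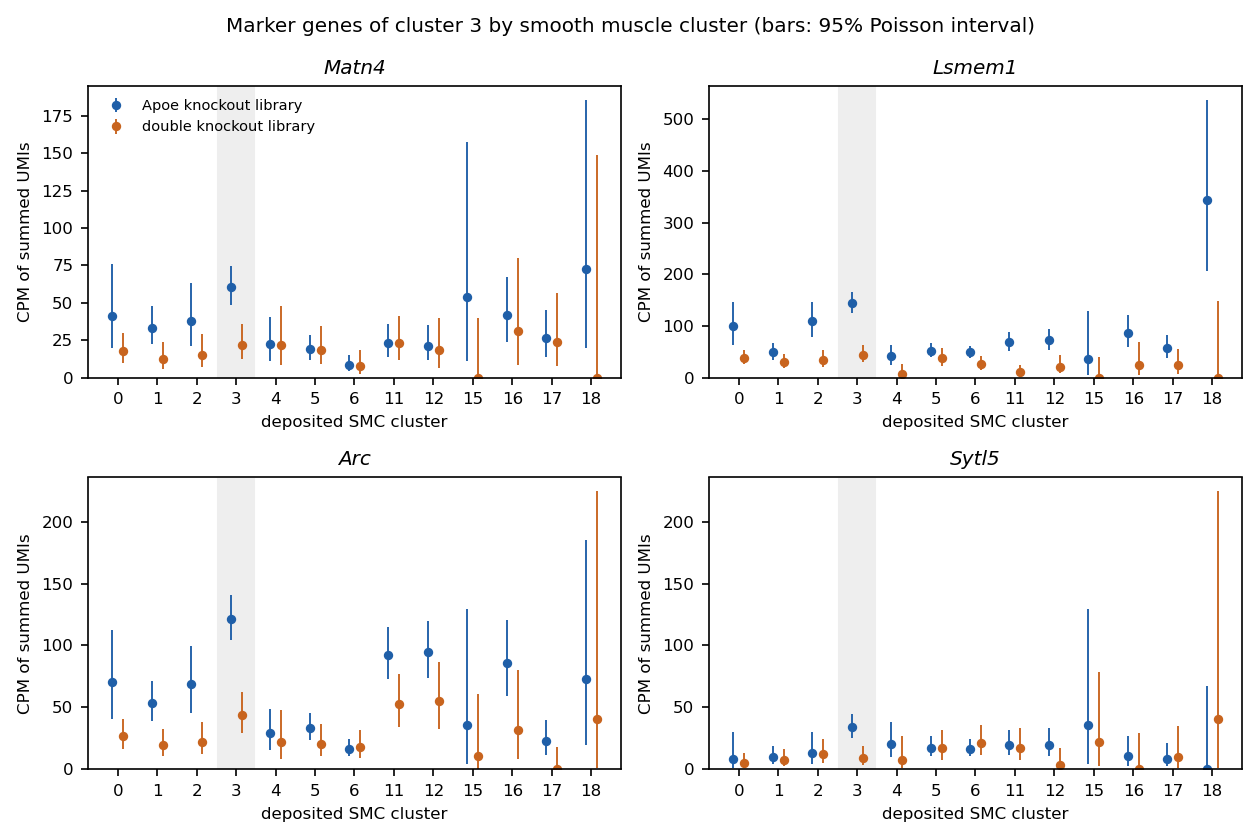
Level of Matn4, Lsmem1, Arc and Sytl5 (CPM of summed UMIs, with 95% Poisson intervals as bars) in each of the 13 smooth muscle clusters with at least 20 cells in each library, for the Apoe knockout and the double knockout library. In the Apoe knockout library cluster 3 (shaded) ranks 1 or 2 of 13 for each gene, while clusters 15 and 18, with 20 and 35 cells, have wide intervals.

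Among the 13 smooth muscle clusters with at least 20 cells in each library, cluster 3 ranked 1 for Arc and 2 for Matn4, Lsmem1 and Sytl5 in the Apoe knockout library. The cluster above it was cluster 18 for Matn4, at 72.5 CPM on 4 UMIs, and for Lsmem1, at 344 CPM on 19 UMIs. For Sytl5 it was cluster 15, at 35.9 CPM on 2 UMIs. Its ranks in the double knockout library were 5 for Matn4, 1 for Lsmem1, 3 for Arc and 8 for Sytl5. The plot of the markers by cluster shows that none of these genes separates cluster 3 from all of its neighbours. The interval of Arc in cluster 3, 104 to 141 CPM, overlapped those of clusters 0, 11, 12, 15, 16 and 18.

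Few single cells carried the markers once depth was made equal. Cells were thinned to 1000 UMIs each, which left 241 and 242 cells of cluster 3 and left out 8 and 45. Of the other smooth muscle cells, 1199 and 1281 were kept and 88 and 2839 left out. Median depth before thinning was 4939 and 2680.5 UMIs in cluster 3 and 5391 and 1910 in the others. In the Apoe knockout library Matn4 had a UMI in 8.30% of cluster 3 cells (23.7% unthinned) and 2.75% of the others (10.3% unthinned). Lsmem1 was seen in 9.96% (38.6% unthinned) against 6.09% (22.7% unthinned). Arc was seen in 9.96% (28.1% unthinned) against 4.50% (18.1% unthinned), and Sytl5 in 4.15% (17.3% unthinned) against 1.42% (7.15% unthinned). As a measure of free RNA, cluster 13 of the deposited immune class (139 cells, median 4783 UMIs) had 0.719%, 3.60%, 0.719% and 0% for these genes in that order, the 0 allowing up to 2.62%. Cluster 9 of the deposited endothelial class (94 cells, median 2159.5 UMIs) had 1.06%, 7.45%, 8.51% and 1.06%. Cluster 3 lay above both for all markers, although its intervals of 6.49 to 14.5% for Arc and for Lsmem1 held the endothelial values.

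In the double knockout library the thinned shares were 2.07% against 1.41% for Matn4, 3.72% against 2.81% for Lsmem1, 3.31% against 2.11% for Arc and 0.826% against 1.33% for Sytl5. Unthinned, they were 4.18%, 9.06%, 9.06% and 2.09% in cluster 3 and 1.77%, 2.91%, 2.69% and 1.31% in the others. Endothelial cells of that library (59 cells, median 1357 UMIs) had 3.39% (0.413 to 11.7) for Matn4, 1.69% for Lsmem1 and 0% for Arc and Sytl5, the 0 allowing up to 6.06%. On so few cells these values do not set a level of background. At equal depth none of the 4 markers was seen in 73.4% of cluster 3 cells of the Apoe knockout library and in 90.5% of those of the double knockout library. At least 2 of them were seen together in 14 of 241 Apoe knockout cluster 3 cells (5.81%), against 1.08% of the other smooth muscle cells. For the double knockout library it was 1 of 242 cells (0.413%), against 3 of 1281 (0.234%).

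Across all genes, 285 were called higher in cluster 3 in the Apoe knockout library and 164 lower, the latter 2.19% of 7494. The double knockout library had 412 genes called higher and 197 lower, the latter 3.13% of 6285. Of 6205 genes tested in both libraries, 82 were called higher in both (1.32%) and 21 lower in both (0.338%). The shared higher genes were 38.9% of the 211 called in the Apoe knockout library and 20.1% of the 408 called in the double knockout library. The shared lower genes were 18.6% of 113 and 11.6% of 181. Ptpn12, Comp, Pstk, Riok1 and Abhd17b were called in opposite directions, chosen here after their values were seen. Of the shared genes, 54 higher and 10 lower also reached 50 CPM in the higher population of each library.

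**Figure D2:**
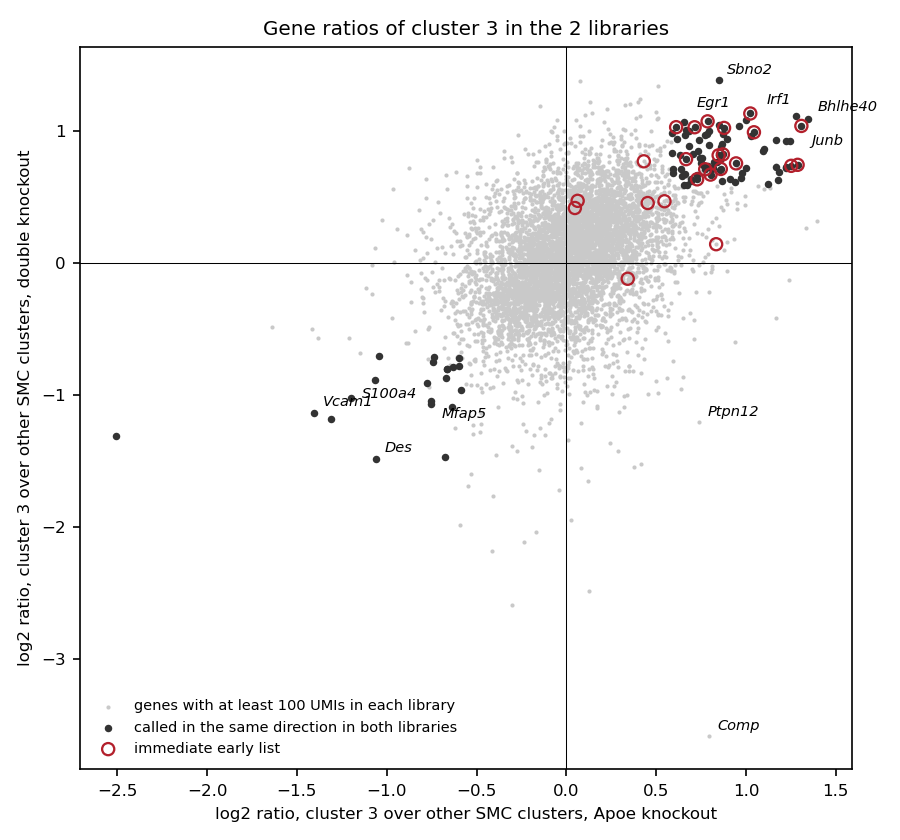
Log2 ratio of cluster 3 over the other smooth muscle clusters for each gene with at least 100 UMIs in each library, in the Apoe knockout (horizontal) and the double knockout library (vertical). Dark points are the 82 higher and 21 lower genes called in the same direction in both, and red rings mark the immediate early list, most of which lies at the upper right.

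The 12 genes with the highest ratios in both libraries are given here by what they are known to do, transcription factors first. Junb, a subunit of the AP-1 transcription factor, stood at 546 CPM in cluster 3 against 220 in the Apoe knockout library and at 1506 against 734 in the double knockout library, log2 ratios of 1.31 and 1.04. Egr1, a zinc finger factor, stood at 5109 against 2512 CPM and at 3506 against 1602 CPM, ratios of 2.03 (1.98 to 2.09) and 2.19 (2.09 to 2.29). Irf1, a transcription factor of interferon and cytokine responses, stood at 115 against 47.4 CPM and at 391 against 181 CPM, ratios of 2.42 (2.00 to 2.92) and 2.16 (1.87 to 2.47). The double knockout ratio divided by the Apoe knockout ratio was 0.828 (0.742 to 0.924) for Junb and 1.08 (1.02 to 1.14) for Egr1, intervals that leave out 1, and 0.890 (0.708 to 1.12) for Irf1.

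Bhlhe40, a circadian and stress-linked repressor, had log2 ratios of 1.34 and 1.09, from 60.0 against 23.7 CPM and 68.3 against 32.1 CPM. Nr4a2, an orphan nuclear receptor, had 1.04 and 0.99, from 135 against 65.4 CPM and 196 against 98.8 CPM. Fosb, another AP-1 subunit, had 0.88 and 1.02, from 1662 against 904 CPM and 1211 against 597 CPM. Like Junb and Egr1, Nr4a2 and Fosb are members of the immediate early list, so 4 of the 12 genes come from it.

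Socs3, which feeds back on STAT3 signalling, stood at 121 against 50.9 CPM and at 196 against 104 CPM, log2 ratios of 1.25 and 0.92. Sbno2, a corepressor downstream of interleukin 10 and STAT3, had 0.85 and 1.39, from 175 against 97.5 CPM and 190 against 72.8 CPM. Cdkn1a, the cell cycle inhibitor p21, had 0.87 and 0.90, from 399 against 219 CPM and 588 against 316 CPM. Stat3 itself was among the 82 shared genes, as were the kinase gene Pim3 and the histone demethylase gene Kdm6b, named after their values were seen.

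Neat1, the long noncoding RNA of nuclear paraspeckles, stood at 1226 against 546 CPM and at 1564 against 822 CPM, log2 ratios of 1.17 and 0.93. Ppp1r10, a nuclear targeting subunit of protein phosphatase 1, had 0.87 and 0.97, and Ints6, a subunit of the Integrator complex that ends transcription of short RNAs, 1.1 and 0.86. Of 8 and 7 measured nuclear-retained RNAs, Neat1 among them, 1 and 2 were higher and 2 and 1 lower, and the imprinted RNA Meg3 was lower in both libraries. Their summed level was higher in cluster 3, at 51001 against 42456 CPM and 37301 against 35923 CPM, ranks 3 and 5 of 13 clusters. Most of that sum was Malat1, at 49215 against 41201 CPM and 35115 against 34549 CPM, under the fold of the rule.

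Of the 82 shared genes, 11 were highest in cluster 3 among all 13 smooth muscle clusters in both libraries. They were Fos, Fosb, Egr1, Ier2 and Dusp1 of the immediate early list, the growth arrest genes Gadd45b and Cdkn1a, the chromatin reader Brd2, the ubiquitin ligase Mylip, and the transcription regulators Elf2 and Mxd1. Gadd45b stood at 1660 against 778 CPM and at 3008 against 1673 CPM, log2 ratios of 1.09 and 0.85. Brd2 stood at 708 against 416 CPM and at 867 against 443 CPM. This set was picked by rank after the values were seen, from genes already called higher than the other clusters together. High ranks follow in part from that choice, so the count describes the genes and carries no test.

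Immediate early genes were higher in cluster 3 as a group in both libraries. Of 29 genes on the list, 27 were measured in each library. Of these, 19 were higher in the Apoe knockout library and 19 in the double knockout library, with 0 lower in both. Among all genes measured at the same minimum, 4.31% and 5.73% were called higher and 2.07% and 2.59% lower. The median log2 ratio of the list was 0.77 and 0.74, beside 0.03 and 0.07 over 11130 and 10410 genes. The summed level was 21650 CPM in cluster 3 against 12147 CPM in the Apoe knockout library, and 19552 against 10935 CPM in the double knockout library. Under the alternatives tried, 15 to 19 members were higher in the Apoe knockout library and 16 to 19 in the double knockout library, with 0 lower and medians of 0.62 to 0.83.

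**Figure D3:**
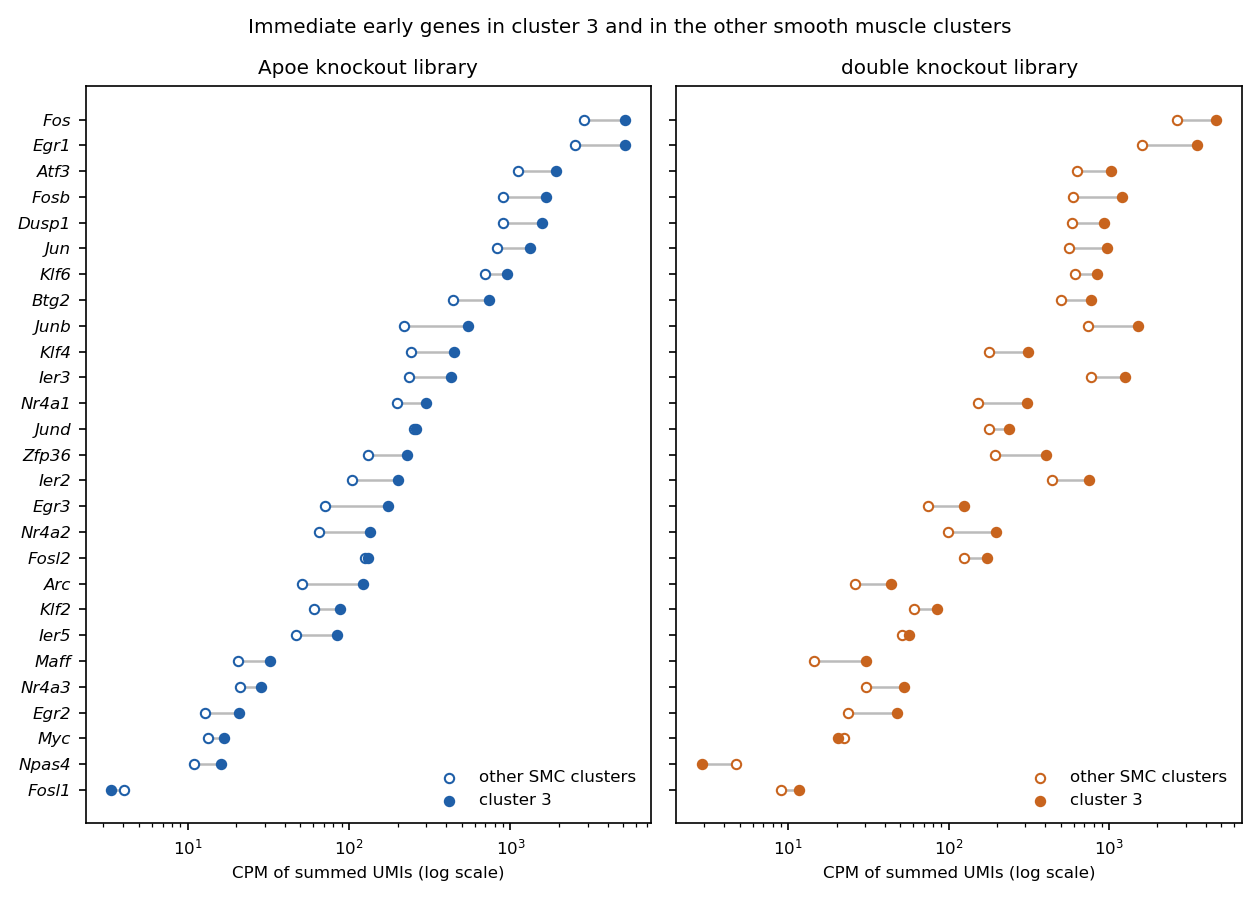
Level (CPM of summed UMIs, log scale) of each measured immediate early gene in cluster 3 (filled) and in the other smooth muscle clusters together (open), in the Apoe knockout library and double knockout libraries. Filled points lie to the right for most genes, while Jund, Fosl2, Myc and Fosl1 show small or no shifts.

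Of the AP-1 subunits, Fos stood at 5154 against 2864 CPM in the Apoe knockout library and at 4658 against 2650 CPM in the double knockout library, ratios of 1.80 (1.75 to 1.85) and 1.76 (1.69 to 1.83). Jun stood at 1315 against 829 CPM and at 972 against 564 CPM. Atf3, a stress-induced partner of Jun, stood at 1902 against 1113 CPM and at 1031 against 631 CPM. Jund and Fosl2 were called in neither library. Jund, which is known for steady expression, stood at 262 against 253 CPM and at 238 against 179 CPM. Fosl2 stood at 131 against 126 CPM and at 173 against 125 CPM, and Fosl1, a late-response member, had 5 and 8 UMIs.

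Of the Egr zinc finger factors and Nr4a nuclear receptors on the list, all but Nr4a3 were called higher in both libraries. Egr3 stood at 173 against 71.0 CPM and at 125 against 74.7 CPM, log2 ratios of 1.29 and 0.74. Egr2 had fewer UMIs, at 20.9 against 12.7 CPM and 47.9 against 23.5 CPM, with log2 ratios of 0.71 and 1.03. Nr4a1 stood at 301 against 197 CPM and at 309 against 152 CPM, log2 ratios of 0.61 and 1.03. Nr4a3 was called in the double knockout library only, at 52.3 against 30.7 CPM, and stood at 28.3 against 21 CPM in the Apoe knockout library. The ratio of its 2 ratios, double knockout over Apoe knockout, was 1.26 (0.767 to 2.08), an interval that held 1.

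Zfp36, Dusp1 and Btg2, members of the list picked here for their known roles, were called higher in both libraries. Zfp36, which destabilises AU-rich messenger RNAs, stood at 227 against 132 CPM and at 407 against 194 CPM, ratios of 1.72 (1.52 to 1.95) and 2.10 (1.83 to 2.40). Dusp1, a phosphatase of MAP kinases, stood at 1563 against 896 CPM and at 930 against 585 CPM. Btg2, an antiproliferative cofactor of RNA decay, stood at 735 against 444 CPM and at 774 against 499.5 CPM. Of the Krüppel-like factors, Klf4, which is known to repress contractile genes, stood at 444 against 243 CPM and at 314 against 178 CPM and was called in both. Klf2 and Klf6 were called in neither, although Klf6 ranked 1 of 13 clusters in both libraries.

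By cluster, the summed immediate early level of cluster 3 ranked 1 of 13 in each library. The next clusters were 11 and 18, at 17972 and 17454 CPM in the Apoe knockout library and at 13841 and 16929 CPM in the double knockout library. Cluster 6 was at 7623 and 6620 CPM. Compared with cluster 11 alone, 4 of 26 members were higher in cluster 3 of the Apoe knockout library and 7 of 25 in the double knockout library, with 0 lower and medians of 0.28 and 0.37. Compared with cluster 18, 3 were higher and 2 lower of 26 in the Apoe knockout, and 2 and 2 of 24 in the double knockout library, with medians of -0.25 and 0.13. Against cluster 6, 23 of 26 and 22 of 24 were higher. Immediate early levels thus ranged widely across the smooth muscle clusters, with cluster 3 at the upper end and clusters 11 and 18 next to it.

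The signal was spread over most cells of the cluster. With each cell thinned to 1000 UMIs, a cluster 3 cell of the Apoe knockout library held a median of 22 immediate early UMIs (quartiles 17 and 28), against 12 (7 and 17) in the other smooth muscle cells. A cell of the double knockout library held 18 (14 and 24) against 10 (6 and 14). The share of cluster 3 cells above the median of the others was 88.4% (83.6 to 92.1) in the Apoe knockout library and 89.3% (84.7 to 92.9) in the double knockout library. A cluster 3 cell had a UMI for a median of 8 and 9 genes of the list, against 6 in the others of both libraries. Within cluster 3, cells split by depth into 3 equal parts had medians of 25, 22 and 20 UMIs from the shallowest to the deepest in the Apoe knockout library, and 19, 19 and 17.5 in the double knockout library.

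**Figure D4:**
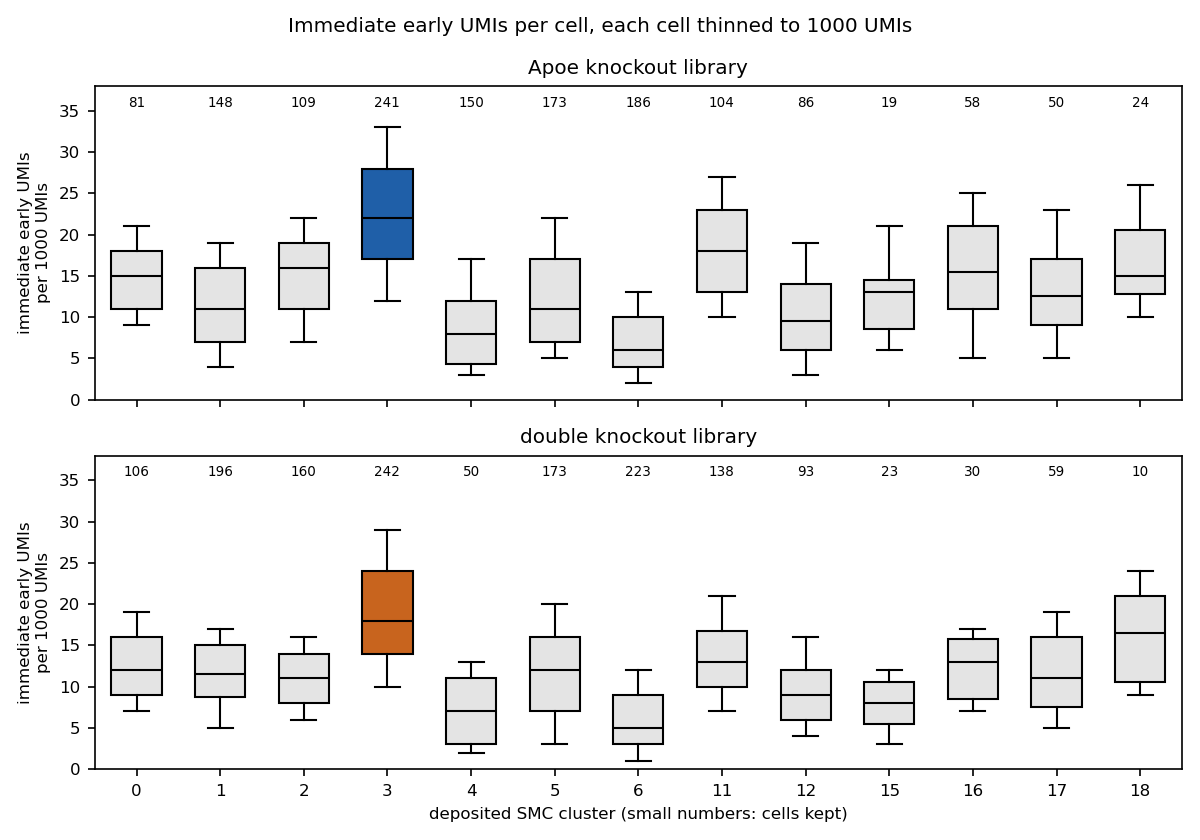
Immediate early UMIs per cell after thinning each cell to 1000 UMIs, by smooth muscle cluster in each library (line: median; box: quartiles; whiskers: the tenth and ninetieth percentiles; small numbers: cells kept). Cluster 3, in colour, has medians of 22 and 18, and its box overlaps those of clusters 11 and 18.

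Egr1 and Junb, shown here as single genes, were also seen in more cluster 3 cells than other smooth muscle cells at equal depth. Egr1 had a UMI in 97.9% of thinned cluster 3 cells against 79.3% of the others in the Apoe knockout library (unthinned 99.6% and 94.4%), and in 91.3% against 69.0% in the double knockout library (unthinned 97.9% and 68.7%). Junb was seen in 39.0% against 19.4% (unthinned 82.7% and 54.1%) and in 73.1% against 43.5% (unthinned 89.5% and 48.5%). Cells of the other classes held both genes too. In endothelial cluster 9 Egr1 was seen in 89.4% and 67.8% of thinned cells and Junb in 36.2% and 50.8%, and in immune cluster 13 of the Apoe knockout library Egr1 in 54.7% and Junb in 33.8%. Immune cluster 13 of the double knockout library kept 15 cells, with Egr1 in 86.7% and Junb in 60%. Klf4 was seen in 31.5% of cluster 3 cells of the Apoe knockout library, against 38.3% of endothelial and 23.7% of immune cells. Bhlhe40 was seen there in 6.22%, against 11.7% and 16.5%, and Fos in 96.3%, against 88.3% and 74.1%. Whether these are free RNA or RNA of those cells was not tested. For Junb in the Apoe knockout library the interval of cluster 3, 32.8 to 45.5%, held the endothelial share.

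Promoters of the shared genes are shown for 4 members whose windows held a motif known from stimulus response, in the 200 bases before the start site (RefSeq, build GRCm38.p6, 5′ to 3′ on the gene's strand, motif matches in capitals). In Zfp36 the capitals are a CArG box, the element bound by serum response factor, and a STAT-type TTCNNNGAA element. In Dusp1 they are the full CREB element TGACGTCA, and in Irf1 and Socs3 the STAT-type element. Irf1 has 2 windows, and the one not shown held none of the motifs searched.
Zfp36, chr7:28379229-28379428, minus strand: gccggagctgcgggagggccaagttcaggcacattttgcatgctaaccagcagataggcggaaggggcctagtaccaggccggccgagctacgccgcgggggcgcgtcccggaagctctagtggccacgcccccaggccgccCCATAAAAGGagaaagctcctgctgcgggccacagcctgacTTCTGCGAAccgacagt
Dusp1, chr17:26508473-26508672, minus strand: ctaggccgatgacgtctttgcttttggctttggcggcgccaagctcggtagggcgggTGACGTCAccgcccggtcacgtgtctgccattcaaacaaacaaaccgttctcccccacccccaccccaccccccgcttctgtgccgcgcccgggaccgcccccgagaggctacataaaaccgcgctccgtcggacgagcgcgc
Irf1, chr11:53769814-53770013, plus strand: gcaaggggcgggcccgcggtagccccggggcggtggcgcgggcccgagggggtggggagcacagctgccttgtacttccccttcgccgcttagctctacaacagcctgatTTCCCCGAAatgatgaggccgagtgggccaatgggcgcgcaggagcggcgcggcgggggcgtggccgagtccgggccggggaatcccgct
Socs3, chr11:117969367-117969566, minus strand: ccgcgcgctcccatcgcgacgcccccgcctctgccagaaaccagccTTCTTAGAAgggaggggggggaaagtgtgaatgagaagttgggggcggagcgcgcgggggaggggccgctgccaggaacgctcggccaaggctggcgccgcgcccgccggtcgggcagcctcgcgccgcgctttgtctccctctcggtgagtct
The CArG box of Zfp36 starts 58 bases before the start site and its STAT-type element 17 bases before. The element of Dusp1 starts 143, that of Irf1 90 and that of Socs3 154 bases before it.

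Windows of 300 bases around the start site were searched on both strands. Of the 82 genes higher in both libraries, 65 had a window, 89 windows in all. The CArG box lay in 7.87% of them, against 1.63% of all 32851 windows and 1.70% of the 6427 windows of genes tested in both libraries. TGACGTCA lay in 8.99%, against 1.79% and 3.31%. TTCNNNGAA lay in 11.2%, against 8.30% and 6.27%, and the AP-1 element TGACTCA in 1.12%, against 5.20% and 3.35%. TATAAA, which can overlap a CArG box, lay in 13.5%, against 13.6% and 7.03%. The 21 genes lower in both libraries had 16 windows, of which 2 held TGACGTCA (12.5%), 1 the CArG box (6.25%), 1 TGACTCA (6.25%), 4 TATAAA (25%) and 0 TTCNNNGAA. On these few windows the shares of TGACGTCA and TATAAA were higher, and that of the CArG box little lower, than among the higher genes. Without the immediate early genes, 72 windows of 52 genes remained, with 2.78% for the CArG box, 8.33% for TGACGTCA and 12.5% for TTCNNNGAA. The CArG matches came from 4 genes, so this share rests on few promoters. Overlapping windows of Egr2 hold the same box, so a single site was counted more than once. By gene the CArG share was 6.15% of the 65 genes, against 1.81% of all genes with a window and 2.08% of those tested in both libraries. These matches describe letters in the windows and carry no test, and no binding was measured.

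Genes known as activity-regulated targets of calcium and CREB signalling were higher in part. Of 16 measured members 7 were higher and 0 lower in the Apoe knockout library, and of 15 members 8 were higher and 1 lower in the double knockout library, with medians of 0.59 and 0.72. The shares of all measured genes to read beside this and the following list counts are those given above, 4.31% and 5.73% higher and 2.07% and 2.59% lower. The list shares 7 members with the immediate early genes, so its counts and medians repeat that list in part. Of the others, Homer1, a scaffold protein of calcium signalling, stood at 98.5 against 45 CPM and at 43.6 against 29.5 CPM, called in the Apoe knockout library only. Dusp5, a nuclear ERK phosphatase, stood at 57.3 against 25.5 CPM and at 53.7 against 32.5 CPM, called in both. Rcan1, an inhibitor of calcineurin, was lower in the double knockout library, at 37.8 against 71.2 CPM. Nfatc1, a calcineurin-driven transcription factor, was higher in both, at 54.0 against 26.5 CPM and at 36.3 against 18.6 CPM, within an NFAT list of which 2 of 14 and 2 of 13 members were higher and 0 and 1 lower, with medians of -0.03 and -0.02.

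The apoptosis and p53 list had 5 of 14 members higher in the Apoe knockout library and 8 of 14 in the double knockout library, with 0 lower and medians of 0.33 and 0.65, where 4.31% and 5.73% of all measured genes were higher. Besides Cdkn1a and Gadd45b these included the proapoptotic genes Bbc3, at 12.1 against 3.36 CPM and 43.6 against 23.1 CPM, and Bcl2l11, at 39.1 against 21 CPM and 45 against 23.5 CPM. Tgfb1, the ligand, and Tgif1, a corepressor of the same pathway, were higher in both libraries. Of 20 measured TGF-beta pathway genes 2 and 4 were higher and 0 lower, with medians of 0.10 and 0.33 beside 0.03 and 0.07 over all measured genes. Tgfb1 stood at 19.6 against 11.3 CPM and at 81.3 against 48.9 CPM. Hk2, the hexokinase of the first step of glycolysis, stood at 144 against 73.3 CPM and at 102 against 63.4 CPM, while 4 and 1 of 17 hypoxia and glycolysis genes were higher, the latter near the share of all measured genes.

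Heat shock genes did not follow the immediate early genes in both libraries. In the Apoe knockout library 2 of 16 were higher, Dnajb1 at 1081 against 600 CPM and Hspa1a at 2368 against 1566 CPM. In the double knockout library 0 were higher and the small heat shock protein gene Hspb1 was lower, at 796 against 1417 CPM. The median log2 ratio of the list was 0.16 and -0.12. The summed heat shock level was highest in cluster 11 in both libraries, at 27989 and 18010 CPM, and cluster 3 ranked 2 in the Apoe knockout library and 8 in the double knockout library. The part of the digestion in the immediate early and heat shock levels was not tested.

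**Figure D5:**
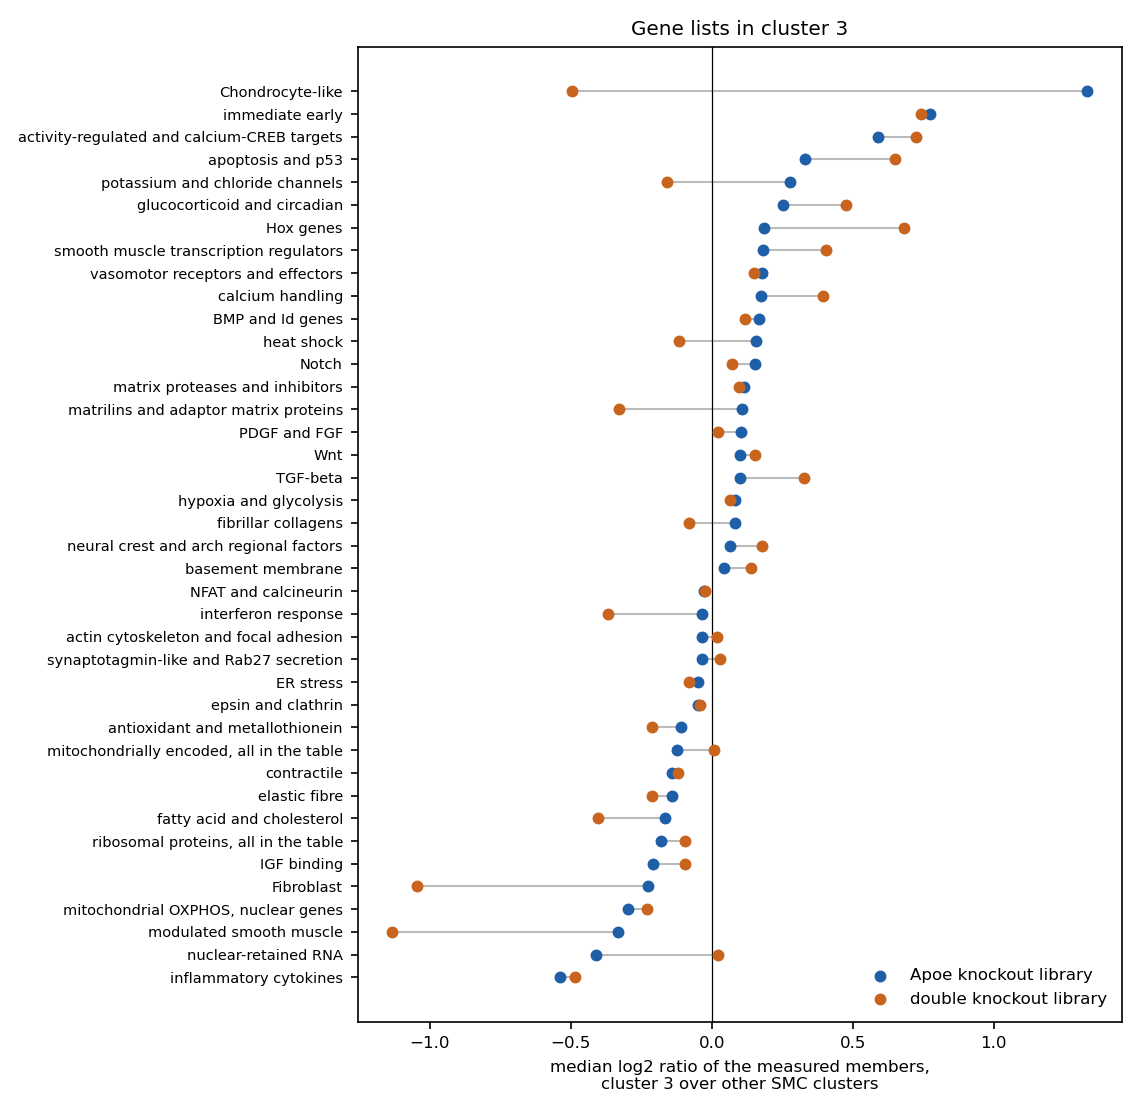
Median log2 ratio of cluster 3 over the other smooth muscle clusters for each gene list with enough measured members, in the Apoe knockout library and double knockout libraries. The immediate early list is near 0.75 in both, contractile genes are near 0, and the chondrocyte-like list lies at 1.33 in the Apoe knockout library and -0.49 in the double knockout library.

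Fewer genes were lower than higher in cluster 3 in both libraries. Des, the intermediate filament protein desmin, stood at 37.1 CPM in cluster 3 against 77.3 CPM in the Apoe knockout library and at 39.2 against 109 CPM in the double knockout library, log2 ratios of -1.06 and -1.48. S100a4, a calcium-binding protein of synthetic smooth muscle, stood at 163 against 374 CPM and at 147 against 298 CPM, log2 ratios of -1.20 and -1.02. Mfap5, a microfibril protein, stood at 86.3 against 146 CPM and at 71.2 against 147 CPM. Crip1, a LIM domain protein, stood at 657 against 987 CPM and at 378 against 736 CPM, and Meg3 at 97.8 against 202 CPM and 68.3 against 112 CPM. Counted from the highest of the 13 smooth muscle clusters, cluster 3 ranked 9 and 10 for Des and 10 and 9 for Meg3. Other clusters thus stood lower for both genes. Its ranks were 12 in both libraries for S100a4, 13 and 12 for Mfap5, and 11 and 12 for Crip1.

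The remaining genes of this kind were Uchl1, a ubiquitin hydrolase, Gng11, a G protein subunit, Fxyd5, a regulator of the sodium pump, Etfb of the electron transfer flavoprotein, and Zcrb1, a minor spliceosome protein. Their log2 ratios lay between -0.60 and -0.78 in the Apoe knockout library and between -0.71 and -0.91 in the double knockout library. Vcam1, an adhesion molecule induced in inflamed smooth muscle and below the naming minimum, was lower in both, at 18.2 against 48.2 CPM and 58.1 against 127 CPM. With cells thinned, 3 and 8 of the 10 named lower genes were still called in the 2 libraries, and all kept their sign.

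The modulated smooth muscle list, of genes that mark smooth muscle turning to a fibroblast-like state, had 0 higher and 2 lower of 10 measured members in the Apoe knockout library, Vcam1 and Lgals3, with a median of -0.33. In the double knockout library 0 were higher and 6 of 11 lower, with a median of -1.13. Spp1, or osteopontin, stood there at 5.81 against 25.2 CPM and Timp1, an inhibitor of matrix proteases, at 11.6 against 45.8 CPM. Of the elastic fibre genes, 2 of 15 were lower in the Apoe knockout library and 3 of 13 in the double knockout library, Eln for elastin at 654 against 988 CPM in the latter. Of 32 nuclear genes of oxidative phosphorylation, 0 and 1 were lower, with medians of -0.30 and -0.23. In the inflammatory cytokine list 1 of 9 was higher and 2 lower in the Apoe knockout library, and 0 of 8 higher and 4 lower in the double knockout library. Its NF-kappa-B feedback member Nfkbia stood at 575 against 334 CPM and at 1570 against 1085 CPM.

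The contractile list had 1 of 15 members lower in each library, Des, and 0 higher, with medians of -0.14 and -0.12. Of the regulators of smooth muscle transcription 1 of 14 was higher in the Apoe knockout library, Klf4, and 3 of 14 in the double knockout library. Calcium handling genes had 0 and 1 of 15 higher, near the 4.31% and 5.73% of all measured genes, with Ryr2, the ryanodine receptor, at 175 against 120 CPM and 129 against 89.6 CPM, just under the fold of the rule. Of the Hox genes, which keep the position of a cell along the aorta, Hoxb3 was higher in both libraries, at 37.8 against 18.9 CPM and 53.7 against 25.4 CPM. In the double knockout library 6 of 18 Hox genes were higher, with a median of 0.68, and in the Apoe knockout library 1 of 16, with a median of 0.18. Glucocorticoid and circadian genes had 0 of 16 higher in the Apoe knockout library and 5 of 16 in the double knockout library, Arntl and Per2 among them.

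Summed markers of the other cell types given here lay below those of the other smooth muscle clusters, apart from fibroblast and endothelial markers in the Apoe knockout library. Macrophage markers summed to 56.7 CPM against 137 CPM in the Apoe knockout library and to 11.6 against 14.3 CPM in the double knockout library, with Adgre1 and Mrc1 at 0 in both. T cell markers summed to 2.02 and 0 CPM. Fibroblast markers summed to 701 against 665 CPM and to 580 against 608 CPM, with 0 of 7 and 0 of 6 higher, and Clec3b at 0 in both. Pericyte markers summed to 1905 against 2496 CPM and to 985 against 1617 CPM. Adipocyte markers, which include Fabp4, summed to 138 against 181 CPM and to 218 against 1524 CPM, with Adipoq, Plin1 and Car3 at 0 in both. Endothelial markers summed to 109 against 69.4 CPM and to 66.8 against 118 CPM, with Vwf and Emcn at 0 in both. Pecam1, the target of the CD31 beads, was the endothelial member called higher in the Apoe knockout library, at 90.4 against 40.2 CPM, and stood at 42.1 against 56.3 CPM in the double knockout library.

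Chondrocyte-like genes were an exception that rested on few cells. In the Apoe knockout library 5 of 7 measured members were higher, with a median of 1.33 and a sum of 599 against 253 CPM. Col2a1, the collagen of cartilage, had 311 UMIs there and stood at 210 against 83.4 CPM. Of the 888 chondrocyte-like UMIs, however, 5 cells held 619 (69.7%), the highest cell 363, and the median cell 1. Without those 5 cells, an alternative added after the data were seen, 1 of 7 was higher and 3 were lower, with a median of -0.63. The list had 54 UMIs in cluster 3 of the double knockout library in all, with 0 of 5 higher and 2 lower. The immediate early list did not rest on these cells: without them 16 and 19 of 27 members were higher, with medians of 0.76 in both libraries.

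The clusters most like cluster 3 in overall profile differed between the libraries. Over 7379 genes of the Apoe knockout library its log2 CPM profile had a Pearson r of 0.972 with cluster 5, 0.970 with cluster 11 and 0.963 with cluster 6, and the lowest values were 0.799 with cluster 15 and 0.766 with cluster 18. Over 6113 genes of the double knockout library the closest were clusters 2, 0 and 5, at 0.955 to 0.951, and clusters 15 and 18 were again lowest. Of these, cluster 2 ranked 11 of 13 for the summed contractile list and 2 for the nuclear-retained RNAs in both libraries. These values are across genes, which are not replicates, and they move with the depth of each cluster. Clusters 11 and 18, which came closest in immediate early level, were thus unlike each other in overall likeness to cluster 3. At the coarser resolution 1 of the deposited clustering, 86.3% and 84.0% of the cluster 3 cells of the 2 libraries stayed together in 1 cluster, of which they made up 66.6% and 61.6%. At resolution 0.4, coarser still, 87.6% and 84.0% stayed in 1 cluster, of which they made up 43.3% and 39.4%.

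The share of smooth muscle cells in cluster 3 differed between the libraries in the deposited cells but hardly among deep cells. It was 16.2% (14.4 to 18.2) in the Apoe knockout library and 6.51% (5.80 to 7.28) in the double knockout library. Among cells of 1000 UMIs or more with a mitochondrial part below 10%, it was 16.7% (14.6 to 18.9; 201 of 1207) and 15.0% (13.2 to 17.0; 216 of 1439). In the double knockout library 84.3% of cluster 3 cells but 31.1% of the other smooth muscle cells had 1000 UMIs. Clusters 0, 1, 2 and 4 of that library, each larger than cluster 3, had median depths of 637 to 757 UMIs. Genotype, library and depth cannot be told apart here.

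Between genotypes within cluster 3, Apoe stood at 6.07 and 1.45 CPM, on 9 and 1 UMIs, in libraries that both carry the knockout. Epn1 stood at 27.0 and 10.2 CPM, the latter on 7 UMIs, and at 30.0 and 30.1 CPM in the other smooth muscle cells. For Epn2 these levels were 81.0 and 118 CPM, and 81.3 and 109 CPM. On the reading of EC-iDKO given above the deletion is endothelial, and a 3′ tag can lie outside the deleted part, so these values check neither label.

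Of 3322 genes tested between the libraries in cluster 3, 339 (10.2%) were higher in the double knockout and 281 (8.46%) lower. In the other smooth muscle cells it was 791 (9.27%) and 587 (6.88%) of 8537. Lars2, a mitochondrial leucyl-tRNA synthetase, stood at 55.3 CPM in the Apoe knockout library and 398 CPM in the double knockout cells, 7.19-fold higher (5.6 to 9.32). Cdo1, which oxidises cysteine, stood at 73.5 and 367 CPM. Foxs1, a forkhead factor of perivascular and smooth muscle cells, stood at 22.3 and 103 CPM. Trp53, the tumour suppressor p53, stood at 43.2 and 186 CPM, Cdkn1b, the inhibitor p27, at 47.2 and 192 CPM, and Hspb7, a small heat shock protein of muscle, at 47.2 and 192 CPM. The clock repressor Nr1d1, the mTOR inhibitor Ddit4, Ier2 and Irf1 followed, with log2 genotype ratios of 1.97, 1.90, 1.90 and 1.77. All of these genes were also called higher in the other smooth muscle cells, so the direction of the shifts was not particular to cluster 3. The genotype ratio of Trp53 was 4.31 in cluster 3 and 2.54 in the other cells, and that of Foxs1 4.63 and 2.45. The first divided by the second was 1.70 (1.22 to 2.36) for Trp53 and 1.89 (1.21 to 2.96) for Foxs1, intervals that leave out 1. The genotype ratio of Lars2 was 5.97 in the other cells. For Cdo1, Hspb7, Ier2 and Irf1 it was 5.12, 4.61, 4.26 and 3.83 there, above the values in cluster 3. The intervals of the cluster 3 ratio divided by it held 1 for each of them. They also held 1 for Lars2, Cdkn1b, Nr1d1 and Ddit4. With cells thinned to 1000 UMIs, 3 of the 10 named higher genes were still called, and all kept their sign.

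The lowest genotype ratios were those of Ibsp, Col2a1 and Dcn, of the matrix of bone, cartilage and connective tissue. Col2a1 had 0 UMIs in the double knockout cells and was at least 48.1-fold lower, by the floor of 3 UMIs over the population, and Ibsp had 2. In the Apoe knockout cells 5 cells held 78.8% of the Col2a1 and 84.3% of the Ibsp UMIs. Without the 5 cells richest in chondrocyte-like UMIs, 8 of the 10 named lower genes were still called. With cells thinned to 1000 UMIs, 3 of these 10 were still called, and all kept their sign. Inducible heat shock genes came next. Hspa1b stood at 2093 CPM in the Apoe knockout library and 206 CPM in the double knockout cells, 10.1-fold lower (8.58 to 12.1), Dnajb1 at 1081 and 158 CPM and Hspa1a at 2368 and 439 CPM. Fam71a, Abra, which drives actin-dependent transcription in muscle, Ndufb1-ps and the marker Lsmem1 completed the list, at log2 genotype ratios of -2.66, -2.00, -1.95 and -1.73. All of these named lower genes were also called lower in the other smooth muscle cells.

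By list, immediate early genes were not uniformly shifted between genotypes in cluster 3: 6 of 26 were higher and 4 lower in the double knockout cells, with a median of -0.11, beside 9.71% higher, 6.06% lower and a median of 0.06 over 8420 genes. Ier2 was among the higher ones, and Arc, at 121 and 43.6 CPM, and Atf3, at 1902 and 1031 CPM, among the lower. Of 16 heat shock genes 1 was higher and 9 lower, with a median of -0.80, as 1 and 8 were in the other smooth muscle cells with a median of -0.58. Apoptosis and p53 genes had 8 of 14 higher and 0 lower, with a median of 0.76, against 4 and 0 with 0.44 in the other cells, where 10.4% of 11722 genes were higher and 7.53% lower. Of 10 Hox genes 6 were higher, Hoxb4 at 14.8 and 78.4 CPM and Hoxa5 at 22.3 and 74.1 CPM, and of 20 in the other cells 11 were higher. Contractile genes had 0 called of 15 in cluster 3, with a median of 0.02. All 4 markers were lower in the double knockout cells, with a median of -1.60, and 2 of 4 in the other smooth muscle cells, with -0.76.

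Where the genotype ratio of cluster 3 is set against that of the other smooth muscle cells, Gpbp1l1 had a ratio of ratios of 2.15 (1.47 to 3.15), standing at 41.8 and 95.9 CPM in cluster 3 and at 51.7 and 55.0 CPM in the others. Foxs1 had 1.89 (1.21 to 2.96). At the other end Scd1, a desaturase of lipid synthesis, had 0.273 (0.181 to 0.412), standing at 41.2 and 61.0 CPM in cluster 3 and at 46.2 and 251 CPM in the others, where 5 cells held 62.1% of its double knockout UMIs. Fabp4, a fatty acid binding protein of adipocytes and endothelium, had 0.478 (0.382 to 0.598). Adipocyte markers other than Fabp4, summed after the data were seen, stood at 0.140 and 954 CPM in the other smooth muscle cells and at 0 and 10.2 CPM in cluster 3, and their part in these ratios was not tested. Fbxo22 had 0.449 (0.289 to 0.697), Dcn 0.484 (0.208 to 1.12) and Hspa4l 0.493 (0.331 to 0.735). Hspa4l stood at 81.6 and 50.8 CPM in cluster 3 and at 67.2 and 84.9 CPM in the others, opposite directions. Hspa1b, Hspa1a and Dnajb1, named above by their genotype ratios, had 0.513 (0.429 to 0.612), 0.635 (0.560 to 0.721) and 0.673 (0.545 to 0.831). These last genes were further apart between the libraries in cluster 3 than in its neighbours, beyond counting error only, from 1 library per genotype.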

How the data were processed

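The deposited expression table holds counts (UMIs), whose sums per cell matched the totals in the authors' cell table. Cell Ranger, Seurat and the mm10 build are named in the submitters' processing notes, and their versions are not given in the sources used here. All cells had been filtered before deposit: the lowest total was 500 UMIs, and the highest value of the mitochondrial fraction that the authors deposited was 20.0%. The deposited class and cluster number are other values, names given by the authors after integration, at the resolution of their final clustering. Of 10345 entries, 2428 were second copies of Apoe knockout barcodes with identical counts and were dropped. Doublets were not called here.

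UMIs were summed per population and library with Python 3.11.15, numpy 2.4.6, pandas 2.3.3 and scipy 1.17.1. Ratios have exact conditional binomial, sums exact Poisson and shares exact Clopper-Pearson intervals, and ratios of ratios normal ones on the log scale. The calling code was tested on simulated data. Cell thinning used seed 1. The profile correlations used log2 of CPM plus 10.

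Named genes are the 4 markers, the 12 highest and up to 12 lowest in both libraries by the smaller log2 ratio, the 10 highest and lowest genotype ratios, up to 5 ratios of ratios each way and up to 4 members per list. The rankings skipped sex-linked, predicted, mitochondrial, ribosomal, haemoglobin and immunoglobulin genes. Other genes were named after their values were seen. The members and gene lists were chosen with earlier results of these data known. B cell and mesothelial markers and 2 immediate early genes, Cyr61 and Ctgf, had no column.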

Additional observations from a re-analysis of the deposited data

Results flagged for a closer look

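A handful of results pointed in opposite directions in the 2 libraries, and none of these differences was tested. The log2 ratio of cluster 3 over the other smooth muscle clusters was 0.74 in the Apoe knockout library and -1.20 in the double knockout library for Ptpn12, a tyrosine phosphatase, on 43 and 6 UMIs. For Comp, a cartilage matrix protein, it was 0.80 and -3.58, on 79 and 2 UMIs, and 70.9% of its Apoe knockout UMIs in cluster 3 lay in 5 cells. The reverse order held for Pstk, a kinase of selenocysteine synthesis, at -0.87 and 0.72, for Riok1, a kinase of ribosome assembly, at -0.67 and 0.66, and for Abhd17b, a depalmitoylase, at -0.61 and 0.69, each on 23 to 35 UMIs in cluster 3. The marker Sytl5 stood at 1.14 and -0.34, on 50 and 6 UMIs. The chondrocyte-like list had a median of 1.33 and -0.49, and 5 cells held 69.7% of its UMIs in cluster 3 of the Apoe knockout library.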

How the results depend on the processing

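No paired analysis was possible because each genotype had 1 library. The 12 named higher genes kept their sign under every alternative run, with 9 and 11 still called in the 2 libraries when cells were thinned to 1000 UMIs or each other smooth muscle cluster was given equal weight. Thinning, which removes UMIs by construction, called 120 higher and 86 lower genes in the Apoe knockout library, 164 and 98 in the double knockout library, 43 and 9 in both, and 85 and 82 between genotypes. Keeping deep cells, of 1000 UMIs or more with a mitochondrial part below 10%, called 241 higher and 113 lower in the double knockout library and 13 lower in both, and gave a double knockout share of 15.0%. Equal weights called 40 higher and 33 lower in both; the cause was not tested. A minimum of 20 UMIs, which tests more genes, called 480 higher in the Apoe knockout library and 818 and 510 between genotypes. List medians changed sign for chondrocyte-like genes in the Apoe knockout library without 5 cells (-0.63, added after the data were seen). With thinning they did so for endothelial genes of that library (0.13), BMP and Id genes between genotypes (0.055), and inflammatory cytokines and matrilins of the double knockout library (0.082 each), and for the cytokines at 0.18 in deep cells; the cause was not tested. Scaling the median log2 ratio to 0, dropping mitochondrial and ribosomal genes, and leaving out cluster 0 or 15 kept all counts of calls within 1.5 times. Genes under 100 UMIs over both populations, such as Matn4 and Sytl5 in the double knockout library, could not be called. The part of depth in this was not tested.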

Other observations

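Of 21 measured receptors and effectors of vessel tone in each library, 1 was higher in cluster 3 of the Apoe knockout and 1 higher and 1 lower in the double knockout library. These counts are near the shares of all measured genes, 4.31% and 5.73% higher and 2.07% and 2.59% lower. Calcrl, the receptor component for calcitonin gene-related peptide and adrenomedullin, stood at 66.1 CPM in cluster 3 against 46.4 CPM in the Apoe knockout library, which was not called, and at 100 against 39.7 CPM in the double knockout library, which was. Rgs5, a brake on G protein signalling, stood at 683 against 1346 CPM in the double knockout cells. Of 11 Notch pathway genes 1 was higher in each library, with medians of 0.15 and 0.07, Hes1 at 176 against 111 CPM in the Apoe knockout and Notch1 at 32.0 against 16 CPM in the double knockout library. Of the growth factor genes, Pdgfc, a ligand for the PDGF receptor alpha, stood at 47.9 against 27.3 CPM in the Apoe knockout library, where 2 of 16 measured members were higher, beside 4.31% of all measured genes.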
